A study of Mus musculus with 12 samples.

Results

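Potassium channel subunit genes were followed through mouse heart formation in dissected cardiogenic regions, the embryonic tissue that gives rise to the heart. The set was defined by name: every gene interval of the deposited count table called Kcn with lower-case family letters and a closing number, and with counts that summed to at least 100 over all libraries. This took in 80 of the 92 matching names, out of 48709 gene intervals in all. The names just inside the minimum were Kcnc1 with 107 counts and Kcns1 with 142, and those just outside were Kcnj16 with 72, Kcnh4 with 95 and Kcnj10 with 97. The rule uses total abundance and no difference between stages. A gene can still pass it only through a stage where it is high, as Kcne4 did at E14. The antisense RNA Kcnq1ot1 and other names with a trailing suffix were not members.

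The study sampled 4 groups whose labels differ by embryonic day alone: E8, E8.5, E9.5 and E14, with 3 libraries of total RNA each. All were labelled as the cardiogenic region of mouse embryos, while for strain, genotype and the number of embryos per library the sources used here give nothing. Whether the 3 libraries of a stage came from separate litters is not labelled either. The p-values therefore reflect the spread among libraries within stages, estimated over all 12 libraries together, and that spread could be technical. Total counts ran from 56574386 to 122785175 per library. The 8 cardiomyocyte markers all had counts in every library, and their summed level, in counts scaled to library size (CPM), lay between 12950 and 24420 in all 12 libraries. Tnnt2, Tnni3, Myh7, Actn2, Ttn and Myl2 were higher in all E14 libraries than in any of E9.5. Myh6 overlapped and Myl7 was lower. Myl2 had 888, 1357 and 1405 CPM at E9.5 and 2908, 2946 and 2952 at E14. Myl7 had 1631, 1615 and 1412 CPM and then 785, 575 and 583. The part of these markers in the channel values was not tested. The tissue is whole, so fewer cells of a type and less RNA per cell cannot be told apart. E8.5 replicate 3 stood apart from the other libraries: 7 visceral endoderm and liver markers summed to 1642 CPM there, and the lowest E8.5 library had 54.7. It was the lowest of the 3 E8.5 libraries in 45 of 80 members, and the share over all genes was not taken.

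Potassium channels let potassium leave or enter the cell and so set the resting potential of heart muscle and end each action potential. Voltage-gated pores open on depolarisation, inward rectifiers hold the resting potential or answer to G proteins and ATP, leak channels with a pair of pore domains pass a background current, and calcium- or sodium-activated channels follow the ion content of the cell. Modifier subunits form no channel alone and change the pores they join, and auxiliary subunits alter gating or transport to the membrane. The 80 members comprised 28 voltage-gated pores, 7 modifiers, 11 inward rectifiers, 11 leak channels, 8 calcium- or sodium-activated channels and 15 auxiliary subunits.

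Promoter sequence is shown for some of the genes called in the comparisons described next. Kcnd2, Kcnj2 and Kcnj3 rose at both E9.5 and E14, Kcnj8 rose steeply at E14 alone, and Kcnf1 fell at both stages. Kcne1 and Kcnj11 also rose at both stages but had no entry among the RefSeq promoters. Each window holds the 250 bases before the RefSeq start on GRCm38.p6, written 5′ to 3′ on the strand of the gene: chr6:21215096-21215345 on the plus strand for Kcnd2, chr11:111065914-111066163 on the plus strand for Kcnj2, chr2:55435720-55435969 on the plus strand for Kcnj3, chr6:142571615-142571864 on the minus strand for Kcnj8 and chr12:17176889-17177138 on the minus strand for Kcnf1. Capitals mark a GC box (GGGCGG, either strand) or a T-box half-site (GGTGTGA, either strand).
Kcnd2: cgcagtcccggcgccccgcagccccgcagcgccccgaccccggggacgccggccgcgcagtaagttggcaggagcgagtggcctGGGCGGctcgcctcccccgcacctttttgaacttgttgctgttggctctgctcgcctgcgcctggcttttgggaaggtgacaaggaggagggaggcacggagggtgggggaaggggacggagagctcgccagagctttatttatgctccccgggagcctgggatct
Kcnj2: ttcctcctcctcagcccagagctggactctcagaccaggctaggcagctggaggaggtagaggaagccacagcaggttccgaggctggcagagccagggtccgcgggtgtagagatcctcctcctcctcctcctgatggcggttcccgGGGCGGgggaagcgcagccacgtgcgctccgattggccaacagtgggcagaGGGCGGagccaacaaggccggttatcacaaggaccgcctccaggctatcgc
Kcnj3: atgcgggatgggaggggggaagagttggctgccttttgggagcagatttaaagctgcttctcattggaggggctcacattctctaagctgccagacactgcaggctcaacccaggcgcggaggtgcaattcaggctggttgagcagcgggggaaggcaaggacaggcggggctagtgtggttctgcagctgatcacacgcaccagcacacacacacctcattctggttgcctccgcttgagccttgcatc
Kcnj8: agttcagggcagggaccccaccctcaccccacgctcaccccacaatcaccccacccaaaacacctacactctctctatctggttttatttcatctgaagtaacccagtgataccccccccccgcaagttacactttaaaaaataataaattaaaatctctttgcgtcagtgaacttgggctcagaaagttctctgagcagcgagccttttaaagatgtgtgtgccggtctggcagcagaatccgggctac
Kcnf1: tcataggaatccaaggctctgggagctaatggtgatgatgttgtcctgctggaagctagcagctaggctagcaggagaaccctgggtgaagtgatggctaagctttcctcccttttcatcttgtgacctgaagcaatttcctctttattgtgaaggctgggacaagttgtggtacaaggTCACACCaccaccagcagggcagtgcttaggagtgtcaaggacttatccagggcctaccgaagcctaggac

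The window of Kcnd2 held 1 GC box and that of Kcnj2 held 2, whereas the Kcnf1 window held 1 T-box half-site on its other strand. CpG dinucleotides numbered 22 in Kcnd2, 14 in Kcnj2, 7 in Kcnj3, 6 in Kcnj8 and 1 in Kcnf1. Of the 80 members, 58 had an entry in the RefSeq table, and 30 of these (51.7%) held a GC box, beside 32.9% of 27025 promoter windows of the same length. A TATA box (TATAAA) was found in 1.72% of member windows and 13.0% of all, and a GATA site (AGATAA) in 1.72% and 10.3%. The T-box half-site was found in 5.17% and 3.31%, and the MEF2 core in 1.72% and 3.23%. These motifs were searched on both strands and a match describes letters only.

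Over the 4 stages, 71 of 80 members changed in edgeR's quasi-likelihood test with Benjamini-Hochberg adjustment over all genes, and 72.3% of the 28846 tested genes did so. The mean was highest at E14 in 32 members, at E8.5 in 26, at E8 in 14 and at E9.5 in 8. The same split over all genes was not taken, so it is not known whether this differs from other genes. In all, 61 members reached a mean of 1 CPM at some stage and 19 never did. Summed over all members, the E8 libraries held 1134 to 1272 CPM, the E8.5 libraries 1360 to 2055, the E9.5 libraries 983 to 1296 and the E14 libraries 1277 to 1623. The E8.5 sums lay above those of both neighbouring stages, and E9.5 and E14 overlapped. Kcnq5, Kcnq1 and Kcnh7, with intervals of 563.5, 320.7 and 490.9 kb, had the largest counts and weigh most in these sums. Genes inside the Kcnq1 interval hold 93.4% of its count, mainly Kcnq1ot1, which is not a member. In stage order the Kcnq1ot1 means were 234.5, 274.4, 168.3 and 205.5 CPM. The course of the sums without these genes was not tested.

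**Figure D1:**
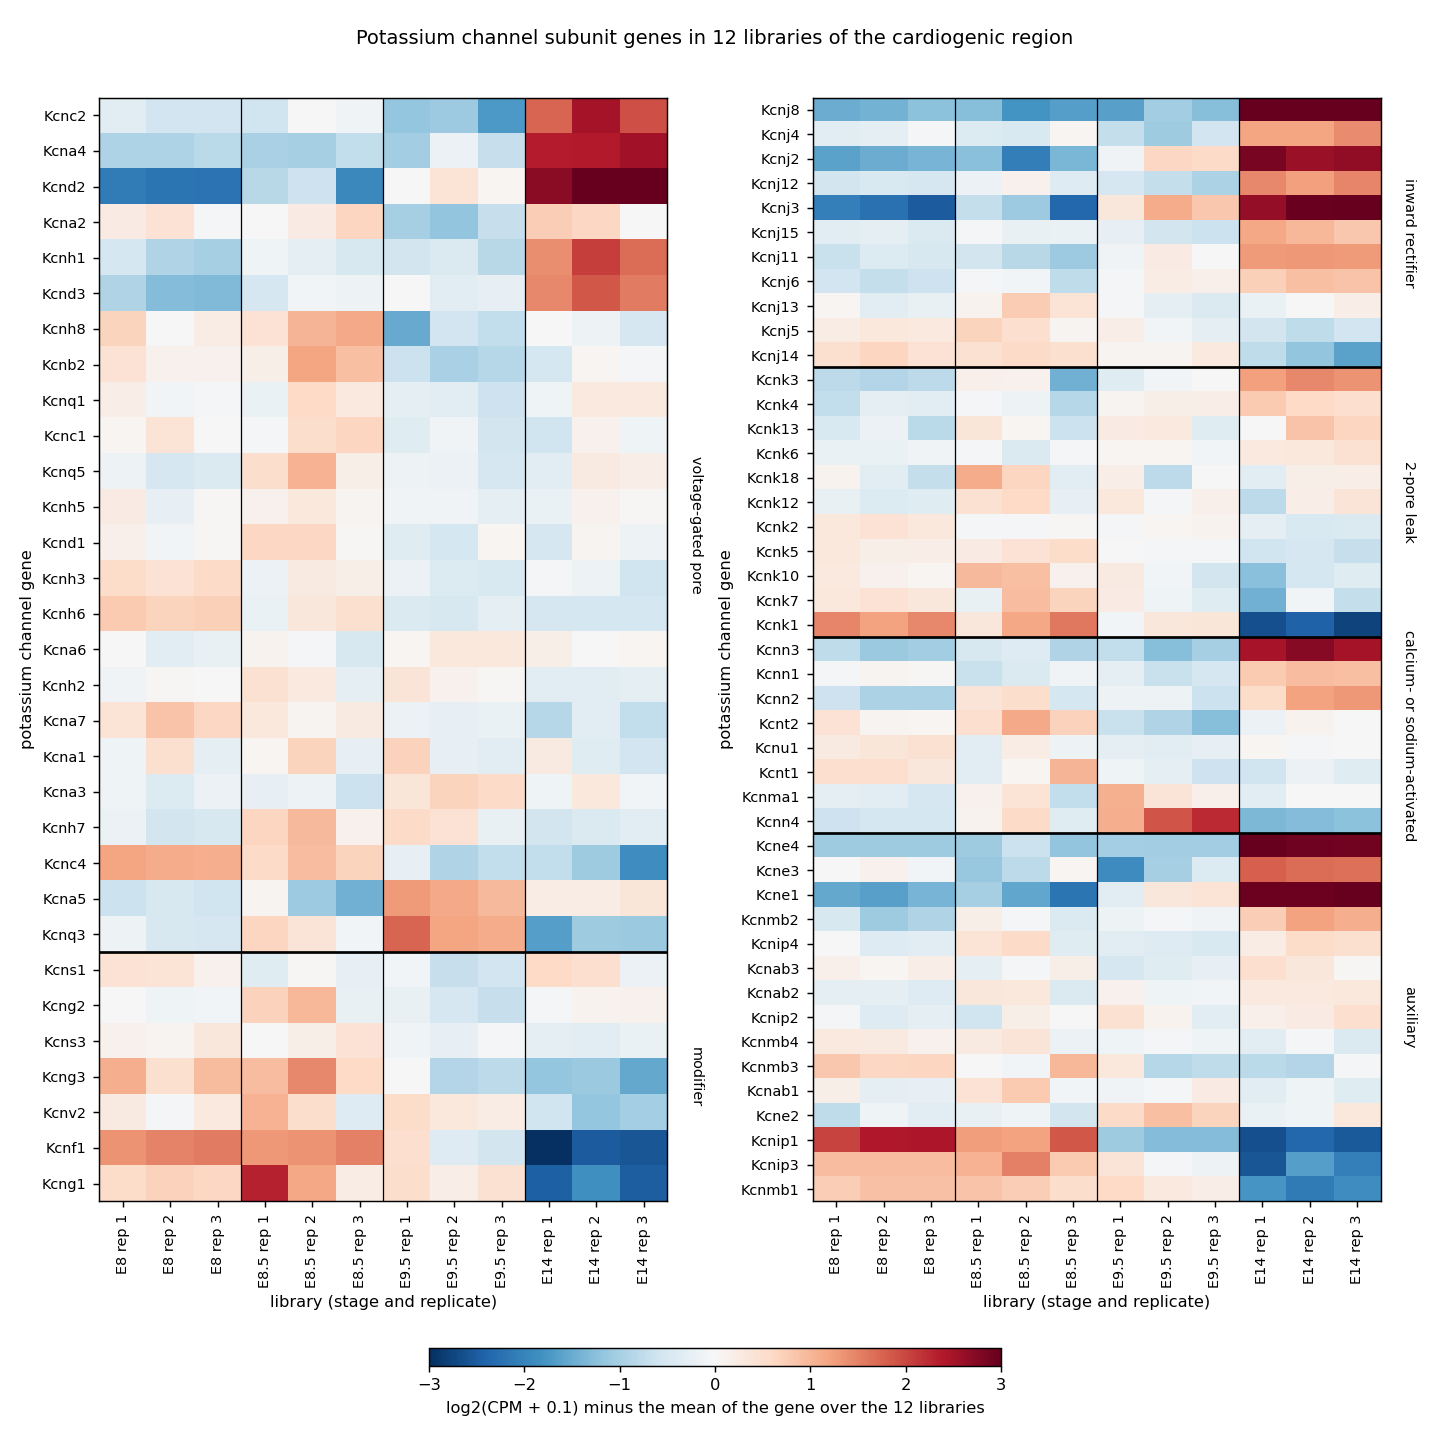
Heat map of 76 of the 80 potassium channel genes (rows, grouped by class) in the 12 libraries (columns, 3 per stage). Colour gives log2(CPM + 0.1) minus the mean of the gene over the 12 libraries, so red is above and blue below that mean. Kcnd2, Kcnj2, Kcnj3, Kcnj8, Kcne1 and Kcne4 are deep red at E14, and Kcnf1, Kcnk1, Kcnip1 and Kcnip3 are deep blue there.

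Between E8 and E8.5 only Kcnd3 rose and Kcnip1 and Kcnk2 fell among the 80 members. Of all genes tested 0.891% rose, 0.291% fell and 1.18% did either. The median log2 change of the members was 0.21, beside 0.02 over all genes. At an unadjusted edgeR p under 0.05, 23 members were higher and 6 lower, beside 8106 of 28846 genes that differed in either direction. All 3 calls were lost in the fit of the compared stages alone, where 9 of 27218 genes were called. Without E8.5 replicate 3, 25 members rose and 5 fell, beside 4212 and 4653 of 29662 genes. Of the 25, 14 were genes of at least 100 kb. The 23 members of that length had a median of 0.57 with all libraries, beside 0.13 in the 57 shorter members, and with the library offsets adjusted for gene length the long members' median was 0.14.

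Between E8.5 and E9.5 more members fell than rose. In that interval 10 of 80 rose and 26 fell, beside 18.4% and 18.5% of all genes (37.0% either), and the median log2 change was -0.42 beside -0.03. Voltage-gated pores gave 4 that rose and 12 that fell of 28, modifiers 0 and 4 of 7 (edgeR; 0 higher and 5 lower at an unadjusted p under 0.05, and 0 and 5 called by DESeq2), and inward rectifiers 3 and 3 of 11. Leak channels gave 0 and 3 of 11 (0 and 3 at an unadjusted p, 0 and 3 by DESeq2), calcium- or sodium-activated channels 1 and 1 of 8, and auxiliary subunits 2 and 3 of 15. Without E8.5 replicate 3, 10 rose and 31 fell, beside 6968 and 6047 of 29662 genes, with 7 of the falls among auxiliary subunits. The fit of the 2 compared stages alone gave 17 falls, beside 2746 of 27091 genes.

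Between E9.5 and E14 the balance turned to rises. There 30 of 80 members rose and 20 fell, beside 25.4% and 24.6% of all genes (50.0% either), with a median of 0.28 beside 0.01. Inward rectifiers gave 8 that rose and 2 that fell of 11, with a median of 1.77. Modifiers gave 1 and 4 of 7 with a median of -0.96, voltage-gated pores 9 and 6 of 28, auxiliary subunits 6 and 4 of 15, calcium- or sodium-activated channels 4 and 1 of 8, and leak channels 2 and 3 of 11. The 23 members of at least 100 kb had a median of 0.71 in this interval, beside 0.11 in the 57 shorter members. With the length adjustment the long members' median was 0.16, beside 0.08 over all genes. That fit gave 27 rises and 21 falls, beside 8141 and 6729 of 28846 genes. Across the whole span from E8 to E14, 28 rose and 26 fell, beside 31.5% and 29.2% of all genes (60.7% either).

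**Figure D2:**
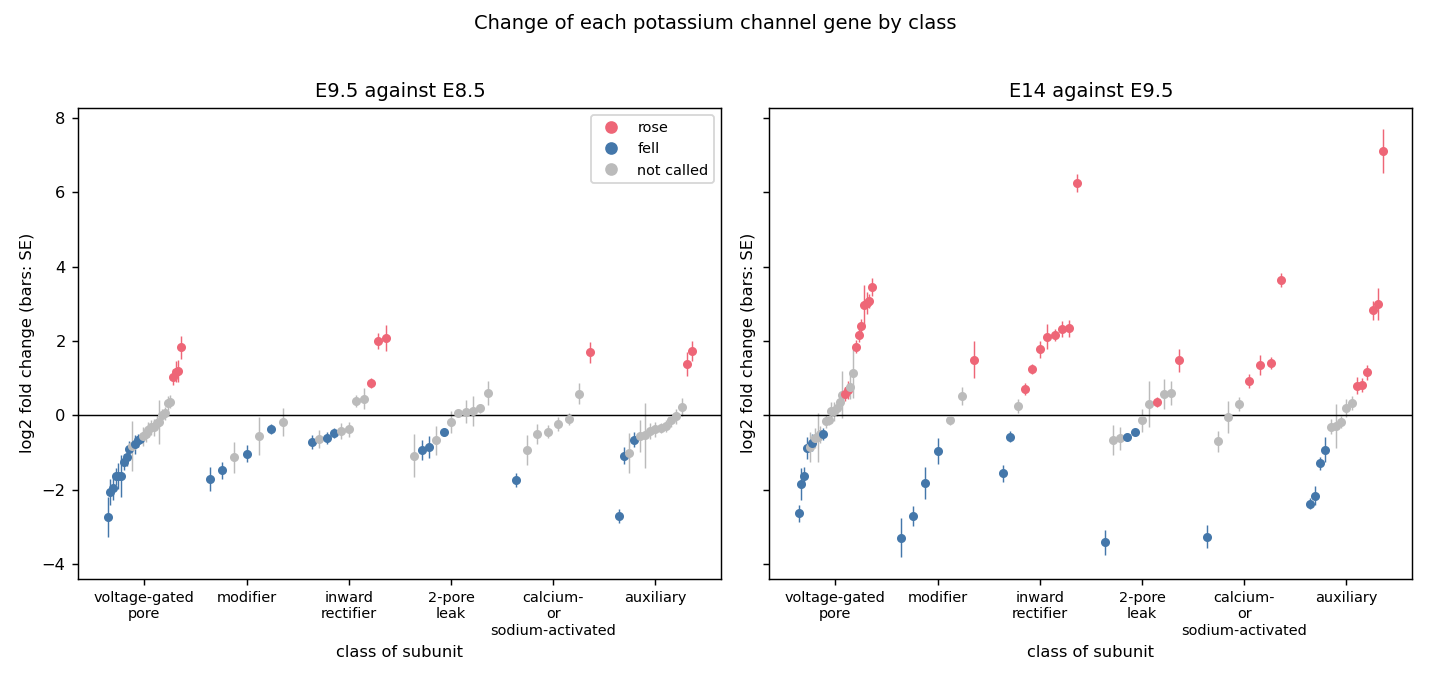
Log2 fold change of each member (points, with the edgeR standard error as bars) by class of subunit, for E9.5 against E8.5 and for E14 against E9.5. Red points rose, blue points fell and grey points were not called. Of 11 inward rectifiers 8 are red at E14, and of 28 voltage-gated pores 12 are blue at E9.5.

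In all, 61 members were called in at least 1 of the later intervals, E9.5 against E8.5 or E14 against E9.5, beside 66.3% of all genes. These are calls on whole intervals. Kcnd2, Kcne1, Kcnj11, Kcnj2 and Kcnj3 rose at both, as did 5.83% of all genes. In all 9 members, and 4.67% of all genes, fell at both, and they included Kcnf1, Kcng3, Kcnip1, Kcnip3, Kcnj5, Kcnk1 and Kcnk5. Kcna5, Kcne2, Kcnn4 and Kcnq3 rose at E9.5 and fell at E14, a course of 5.3% of all genes. Kcna2, Kcnb2, Kcnc2, Kcnip4, Kcnj12, Kcnq1 and Kcnt2 fell at E9.5 and rose at E14, beside 4.82%. Another 36 members (45.7% of all genes) were called in 1 of the intervals, and 18 of them (14.8% of all genes) rose from E9.5 to E14 without a call from E8.5 to E9.5.

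Among voltage-gated pores, Kcnd2 and Kcnd3 form the channels of the fast transient outward current, which shapes the early phase of repolarisation, and both rose. Kcnd2 stood at 3.46, 3.19 and 3.14 CPM at E8, 8.46, 9.74 and 3.88 at E8.5, 14.8, 20.0 and 15.6 at E9.5 and 99.3, 148 and 162 at E14. No library of one stage reached those of the next, with E8.5 replicate 3 close to the E8 libraries. The gene rose 1.19 ± 0.29 (log2 ± SE, edgeR adjusted p = 0.00889) at E9.5 and a further 3.02 ± 0.30 (adjusted p = 1.12e-05) at E14, and E14 was 41.9-fold above E8. Kcnd3 was at 2.28, 1.71 and 1.68 CPM at E8, 3.03, 4.05 and 3.85 at E8.5, 4.29, 3.38 and 3.65 at E9.5 and 11.9, 16.0 and 12.9 at E14. It made its gain in 2 steps, E8.5 and E14, with E8.5 and E9.5 overlapping. The first step was 0.95 ± 0.17 (adjusted p = 0.0418), and it lost its call in 8 of the 12 fits with a library left out: without E8 replicate 2 or 3, E8.5 replicate 2, E9.5 replicate 2 or 3, or any E14 replicate (adjusted p up to 0.217). The second was 1.85 ± 0.17 (adjusted p = 3.12e-06). Their relative Kcnd1 stood at 1.31, 1.30 and 0.841 CPM at E8.5, 0.617, 0.532 and 0.856 at E9.5 and 0.551, 0.875 and 0.729 at E14. It fell by 0.78 ± 0.25 at E9.5 (adjusted p = 0.0276), with overlapping libraries and a call that was lost without E8.5 replicate 1 or 2 and without E9.5 replicate 1 or 2 (adjusted p up to 0.113). Kcnd1 differed by 0.11 ± 0.25 at E14 (adjusted p = 0.737).

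Kcna4, the pore of the slow transient outward current, had 1.21, 1.21 and 1.31 CPM at E8, 1.16, 1.16 and 1.40 at E8.5, 1.12, 2.11 and 1.45 at E9.5 and 12.6, 12.8 and 14.1 at E14. The first 3 stages overlapped and all E14 libraries lay above them, a rise of 3.07 ± 0.19. Kcnip2, the calcium-binding subunit that partners the Kcnd pores in the heart, was not called in any interval. It was at 1.80, 1.41 and 1.5 CPM at E8, 1.22, 2.14 and 1.87 at E8.5, 2.62, 2.02 and 1.495 at E9.5 and 2.09, 2.25 and 2.71 at E14. Its stages overlapped from one to the next, with 0.20 ± 0.24 (adjusted p = 0.513) from E9.5 to E14 and 0.59 ± 0.24 (adjusted p = 0.0513) from E8 to E14. Dpp6, another partner of the Kcnd pores, had 13.1 to 20.1 CPM in the E9.5 libraries and 16.6 to 20.7 in those of E14, a log2 difference of 0.12 ± 0.18.

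Kcna5, the pore of the ultrarapid delayed rectifier, reached its highest level at E9.5. It had 2.98, 3.33 and 3.07 CPM at E8, 4.99, 2.15 and 1.66 at E8.5, 11.6, 10.5 and 9.40 at E9.5 and 5.49, 5.49 and 6.12 at E14. All E9.5 libraries lay above all others. The rise was 1.83 ± 0.31 (adjusted p = 0.00127). The fall that followed, -0.88 ± 0.30 (adjusted p = 0.0316), lost its call without E9.5 replicate 1 or 2 and without any 1 of the E14 replicates (adjusted p up to 0.0824). Kcnb2, a delayed rectifier pore, was at 13.8, 27.9 and 22.9 CPM at E8.5, 7.82, 6.16 and 6.70 at E9.5 and 8.45, 12.8 and 11.9 at E14, so that it fell by 1.64 on the log2 scale and then rose 0.69 (adjusted p = 0.0291). The rise lost its call with the length adjustment (0.16, adjusted p = 0.483) and without E8.5 replicate 3, E9.5 replicate 2 or 3, or E14 replicate 2 or 3 (adjusted p up to 0.12).

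Kcnc2, whose channels deactivate fast, fell by 1.12 ± 0.23 at E9.5 and rose 3.46 ± 0.25 at E14. The E9.5 libraries had 2.15, 2.28 and 1.43 CPM and the E14 libraries 16.7, 28.5 and 19.2, against 3.24 to 4.88 at E8.5. Kcnc4 also fell at E9.5. Kcnc1, at most 0.181 CPM in any library, was called there too (-1.63, adjusted p = 0.0421), a call lost with DESeq2 (adjusted p = 0.0694) and without any 1 of 10 libraries (adjusted p up to 0.158): each of E8 and E9.5, E8.5 replicates 2 and 3, and E14 replicates 2 and 3.

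Kcnh2, the pore of the rapid delayed rectifier, was abundant at all 4 stages. It had 58.6, 64.5 and 63.2 CPM at E8, 86.1, 77.1 and 50.8 at E8.5, 81.6, 68.3 and 64.4 at E9.5 and 50.0, 50.7 and 51.0 at E14. All E14 libraries were below those of E9.5, and the gene fell by 0.50 ± 0.16 on the log2 scale (adjusted p = 0.0198). That call was lost without E9.5 replicate 1 (-0.40, adjusted p = 0.0778). Among its relatives, Kcnh6 fell by 0.63 at E9.5 to a mean of 8.998 ± 0.588 CPM (SD, n = 3), Kcnh8 fell by 1.97 ± 0.32 at E9.5, and Kcnh1 rose 2.40 ± 0.20 at E14. Kcnh8 had 1.35, 2.09 and 2.26 CPM at E8.5 and 0.276, 0.623 and 0.548 at E9.5. Kcnh1 shares part of its interval with Hhat on the other strand, whose count was 3.44 times as high, and Hhat had 11.9, 11.3 and 11.9 CPM at E9.5 and 13.4, 18.3 and 15.4 at E14, while Kcnh1 had 1.94, 2.13 and 1.58 and then 7.84, 12.5 and 9.46. The share of Kcnh1 reads that belong to Hhat was not tested.

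The M-current genes Kcnq3 and Kcnq5, whose channels restrain firing in nerve cells, took different courses. Kcnq3 had 22.2, 17.7 and 17.4 CPM at E8, 38.7, 32.7 and 23.4 at E8.5, 84.0, 56.6 and 53.5 at E9.5 and 7.88, 11.8 and 11.4 at E14. Each stage was clear of its neighbours, with E9.5 the highest and E14 the lowest. It rose 1.03 ± 0.22 (adjusted p = 0.00475) and then fell by 2.64 ± 0.24 (adjusted p = 4.36e-06). Kcnq5 peaked a stage earlier at 397, 570 and 314 CPM and fell by 0.90 to 247, 245 and 194 at E9.5. The 8 neuronal markers, at least 7 of them with counts in all libraries of each stage, summed to 14.6 to 30.4 CPM over all 12 libraries, and to 20.8 to 24.7 in those of E9.5. From E8.5 to E9.5 Tubb3 was higher in all libraries, Syt1, Elavl4 and Snap25 were lower and the others overlapped. Tubb3 had 0.773, 1.06 and 2.45 CPM at E8.5, 2.72, 8.08 and 8.36 at E9.5 and 1.025, 1.372 and 1.355 at E14. Syt1 had 15.1, 17 and 9.11 CPM, then 8.98, 7.45 and 5.41 and then 4.04, 5.62 and 5.54. The part of these markers in the Kcnq values was not tested.

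**Figure D3:**
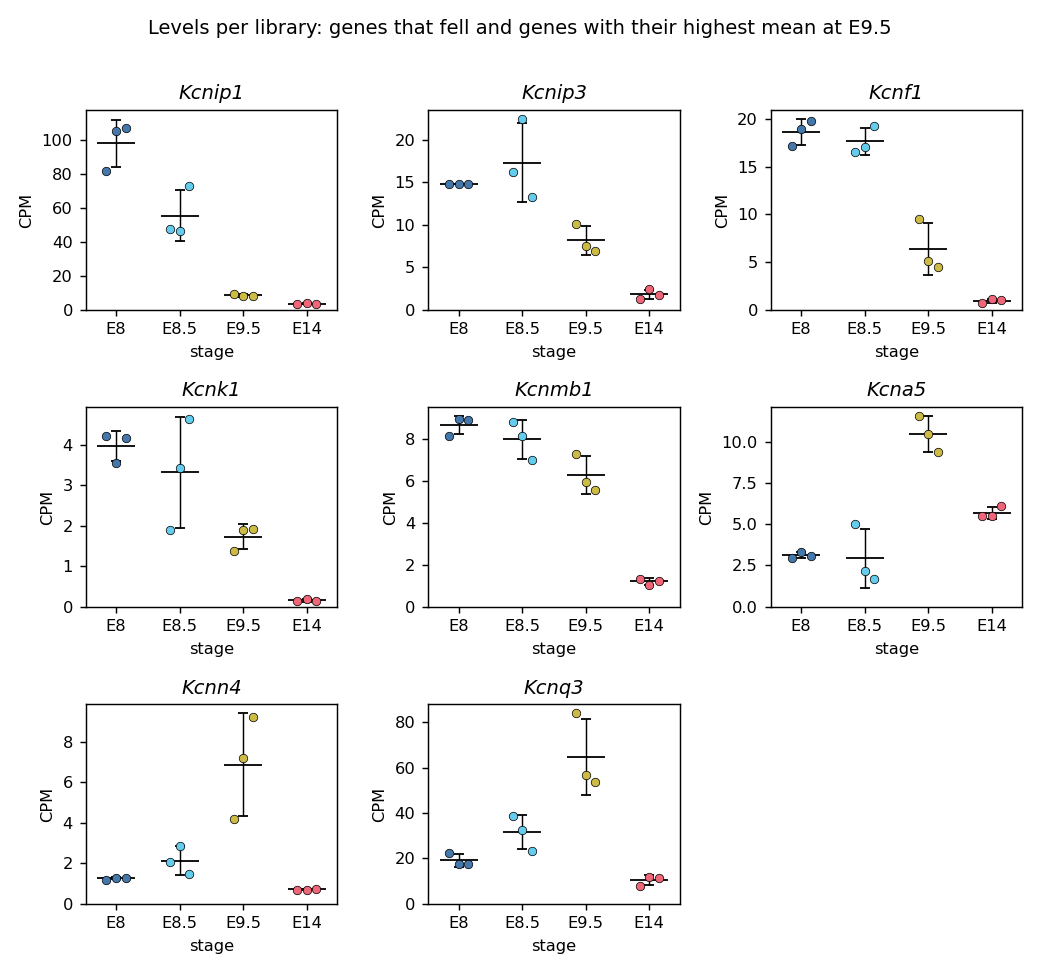
Levels of 8 genes in CPM by stage, 1 point per library in order of replicate, with the mean (horizontal line) and SD (bar) of 3 libraries on linear axes that start at 0. Kcnip1, Kcnip3, Kcnf1, Kcnk1 and Kcnmb1 are lowest at E14, and Kcna5, Kcnn4 and Kcnq3 have their highest mean at E9.5.

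Kcnq1, the pore of the slow delayed rectifier, needs its interval split before it can be read. It spans chr7:143106362-143427042 on the plus strand, and the antisense RNA Kcnq1ot1, known for its role in imprinting, lies inside it. Genes enclosed by Kcnq1 hold 93.4% of its count. The whole interval was at 271, 225 and 229 CPM at E8, 207, 359 and 290 at E8.5, 196, 187 and 153 at E9.5 and 216, 292 and 289 at E14. On that scale it fell by 0.68 ± 0.19 at E9.5 and rose 0.57 ± 0.19 at E14 (adjusted p = 0.0239), and both calls were lost with a length adjustment and without E9.5 replicate 3, the fall also without E8.5 replicate 2 and the rise also without E14 replicate 2 or 3 (adjusted p up to 0.432). With the enclosed counts taken away, Kcnq1 had 6.38, 5.98 and 5.96 CPM at E8, 9.501, 11.4 and 6.86 at E8.5, 9.06, 8.81 and 7.59 at E9.5 and 38.7, 56.6 and 55.6 at E14. All E14 libraries were then clear of the rest, and the rise from E9.5 was 2.57 ± 0.19 (adjusted p = 6.55e-07), with -0.13 ± 0.18 at E9.5.

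Kcne1, the auxiliary subunit that joins Kcnq1 in the slow delayed rectifier, had 1.27, 1.17 and 1.40 CPM at E8, 1.88, 1.25 and 0.769 at E8.5, 3.01, 4.87 and 5.11 at E9.5 and 30.4, 30.3 and 31.4 at E14. E8 and E8.5 overlapped, and from then on each stage was above the one before. It rose 1.74 ± 0.27 (adjusted p = 0.000761) at E9.5 and 2.82 ± 0.26 (adjusted p = 5.1e-06) at E14, and E14 was 23.9-fold above E8. Kcne2 lies 47.9 kb from Kcne1 on chromosome 16 and took another course, with 0.394, 0.521 and 0.434 CPM at E9.5 and at most 0.313 in every other library. Its fall at E14 (-0.92, adjusted p = 0.0355) lost its call without E9.5 replicate 2 or 3 and without E14 replicate 1 or 2 (adjusted p up to 0.115). Kcne3 rose 2.997 ± 0.43 at E14 to 2.85, 2.64 and 2.57 CPM. It lies inside Gm34821 on the other strand, which had 0.879, 1.43 and 1.55 CPM at E9.5 and 3.68, 3.55 and 3.22 at E14. The share of Kcne3 reads that belong to it was not tested.

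Kcne4, a subunit that inhibits Kcnq1 and some other pores, came on between E9.5 and E14. Its 3 libraries held 3 counts in all at E8, 3 at E9.5 and 391 at E14. That is a ratio of 148 between E14 and E9.5, with an exact 95% interval of 50.3 to 720.7 that covers counting error only. It reached 2.24, 1.62 and 1.60 CPM. Kcne4 is enclosed by Gm29536 on the other strand, which had 17.8 times its count over all libraries but stood at 4.29, 3.99 and 3.61 CPM at E9.5 and at 5.75, 5.90 and 5.32 at E14.

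**Figure D4:**
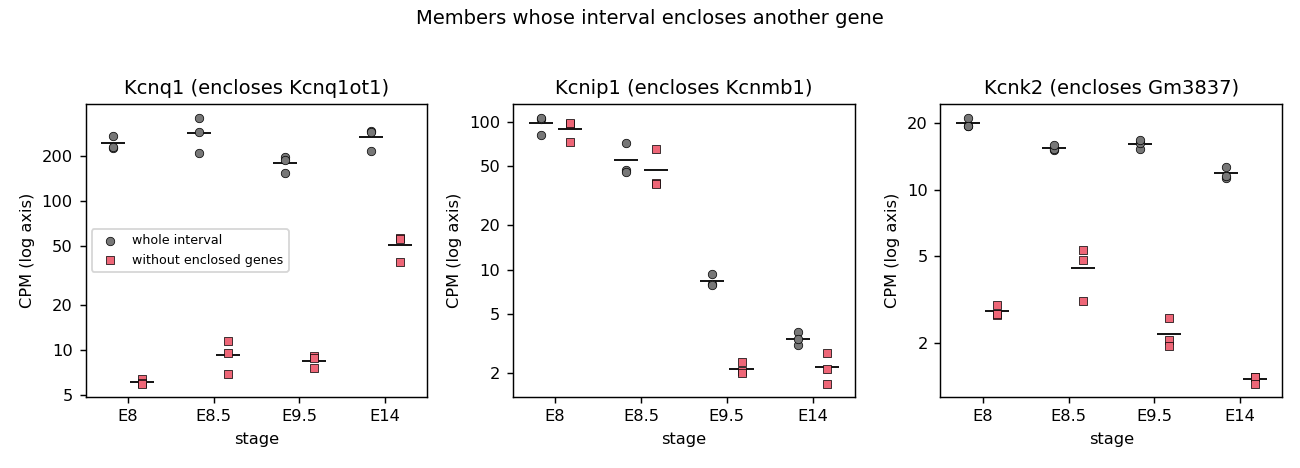
Levels of Kcnq1, Kcnip1 and Kcnk2 per library by stage on log axes, for the whole interval (grey circles) and with the counts of enclosed genes taken away (red squares); lines are means of 3 libraries. The grey values of Kcnq1 stay between 153 and 359 CPM while the red ones are 5.96 to 11.4 before E14 and 38.7 to 56.6 at E14.

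The inward rectifiers of the resting potential rose late. Kcnj2, the main pore of that current in ventricle, had 1.37, 1.49 and 1.60 CPM at E8, 1.78, 0.971 and 1.62 at E8.5, 4.09, 6.82 and 6.55 at E9.5 and 32.2, 26.7 and 28.4 at E14. E8 and E8.5 overlapped and the later stages were clear of each other. It rose 1.999 ± 0.23 (adjusted p = 0.000134) and 2.32 ± 0.22 (adjusted p = 4.7e-06). Kcnj12, which forms the same kind of channel, fell by 0.62 ± 0.16 at E9.5 to 1.72, 1.46 and 1.24 CPM and rose 2.17 ± 0.17 to 6.89, 5.94 and 7.02 at E14. The fall lost its call without E9.5 replicate 3 (adjusted p = 0.0581). Kcnj4, the third of these pores, rose 2.34 ± 0.24 at E14 from a mean of 0.326 ± 0.0707 to 1.65 ± 0.17 CPM (SD, n = 3).

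The partners of the muscarinic channel, Kcnj3 and Kcnj5, went in opposite directions. Kcnj3 was at 1.08, 0.927 and 0.758 CPM at E8, 2.86, 2.19 and 0.850 at E8.5, 6.04, 10.5 and 8.42 at E9.5 and 30.1, 37.6 and 40.2 at E14. E8 and E8.5 overlapped, and from E9.5 on the libraries of each stage were all above those of the stage before. It rose 2.08 ± 0.35 (adjusted p = 0.00137) and 2.11 ± 0.34 (adjusted p = 0.000349), and E14 was 39.1-fold above E8. Kcnj5 was present from the start, at 76.1, 81.2 and 79.4 CPM at E8, 103, 91.8 and 68.8 at E8.5, 74.4, 61.3 and 53.6 at E9.5 and 44.7, 38.5 and 44.1 at E14. It fell by 0.48 ± 0.14 (adjusted p = 0.0227) and then fell by 0.57 ± 0.15 (adjusted p = 0.00597), the first with overlapping libraries. That first call was lost without E8.5 replicate 1 or 2 and without E9.5 replicate 2 or 3 (adjusted p up to 0.0993). Kcnj6, another G protein-gated pore, rose 0.71 ± 0.16 at E14 to 19.7, 22.6 and 21.9 CPM.

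ATP-sensitive channels join a Kcnj8 or Kcnj11 pore to the regulatory proteins Abcc9 or Abcc8. Kcnj8 was at 0.0832 to 0.204 CPM in the 9 libraries before E14 and at 11.4, 12.6 and 12.2 at E14. Its counts summed to 40 at E9.5 and 2702 at E14, and it rose 6.24 ± 0.24 (adjusted p = 6.26e-09). Kcnj11 had 4.47, 5.43 and 5.13 CPM at E8, 4.92, 4.02 and 3.35 at E8.5, 6.71, 8.55 and 7.19 at E9.5 and 17.6, 17.8 and 17.6 at E14, rising 0.87 ± 0.14 and 1.24 ± 0.14. Thus the 2 pores were expressed on different schedules, Kcnj11 in all 12 libraries above 3 CPM and Kcnj8 at that level only at E14.

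Each of these pores has a regulator as its neighbour. Abcc9 lies 16.2 kb from Kcnj8 on chromosome 6 and had 20.3 to 20.7 CPM in E8 libraries, 49.0 to 69.8 in E9.5 libraries and 122.6 to 137 in E14 libraries. Abcc9 rose 1.40 ± 0.19 at E9.5, where Kcnj8 differed by 0.45 ± 0.28 (adjusted p = 0.264). Abcc8 lies 3.8 kb from Kcnj11 on chromosome 7 and rose 2.30 ± 0.18 at E14, from between 2.24 and 3.002 CPM to between 12.2 and 13.3. Kcnj8 is also known in pericytes and vascular smooth muscle. The 7 smooth muscle and pericyte markers, all with counts in every library, had summed levels between 2114 and 2395 CPM in E9.5 libraries and between 892 and 961 in E14 libraries. Of these 7 markers, Acta2, Tagln and Myh11 were lower in all E14 libraries than in any of E9.5, Cnn1 and Cspg4 overlapped, and Pdgfrb and Rgs5 were higher. Acta2 went from 1626 to 1894 CPM down to 592 to 654, Tagln from 264 to 274 down to 30.0 to 31.6 and Myh11 from 9.14 to 16.5 down to 3.82 to 5.47. Pdgfrb, a pericyte receptor, had 12.1, 13.6 and 14.4 CPM and then 37.3, 40.8 and 37.7, and Rgs5 had 10.2, 12 and 11.9 and then 20.7, 22.4 and 23.8. Their part in the Kcnj8 rise was not tested.

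Of the other inward rectifiers, Kcnj15 rose 1.77 ± 0.22 at E14 and stayed at or below 1.01 CPM. Kcnj14 fell by 1.56 ± 0.23 at E14 to 0.475, 0.335 and 0.221 CPM. Kcnj13 fell by 0.71 ± 0.19 at E9.5, a call lost without E9.5 replicate 3 (adjusted p = 0.0517), and it lies inside Gigyf2 on the other strand, which holds 17.5 times its count and had 78.5, 99.9 and 89.4 CPM at E8.5 and 70.6, 70.8 and 67.1 at E9.5. The share of Kcnj13 reads that belong to Gigyf2 was not tested.

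**Figure D5:**
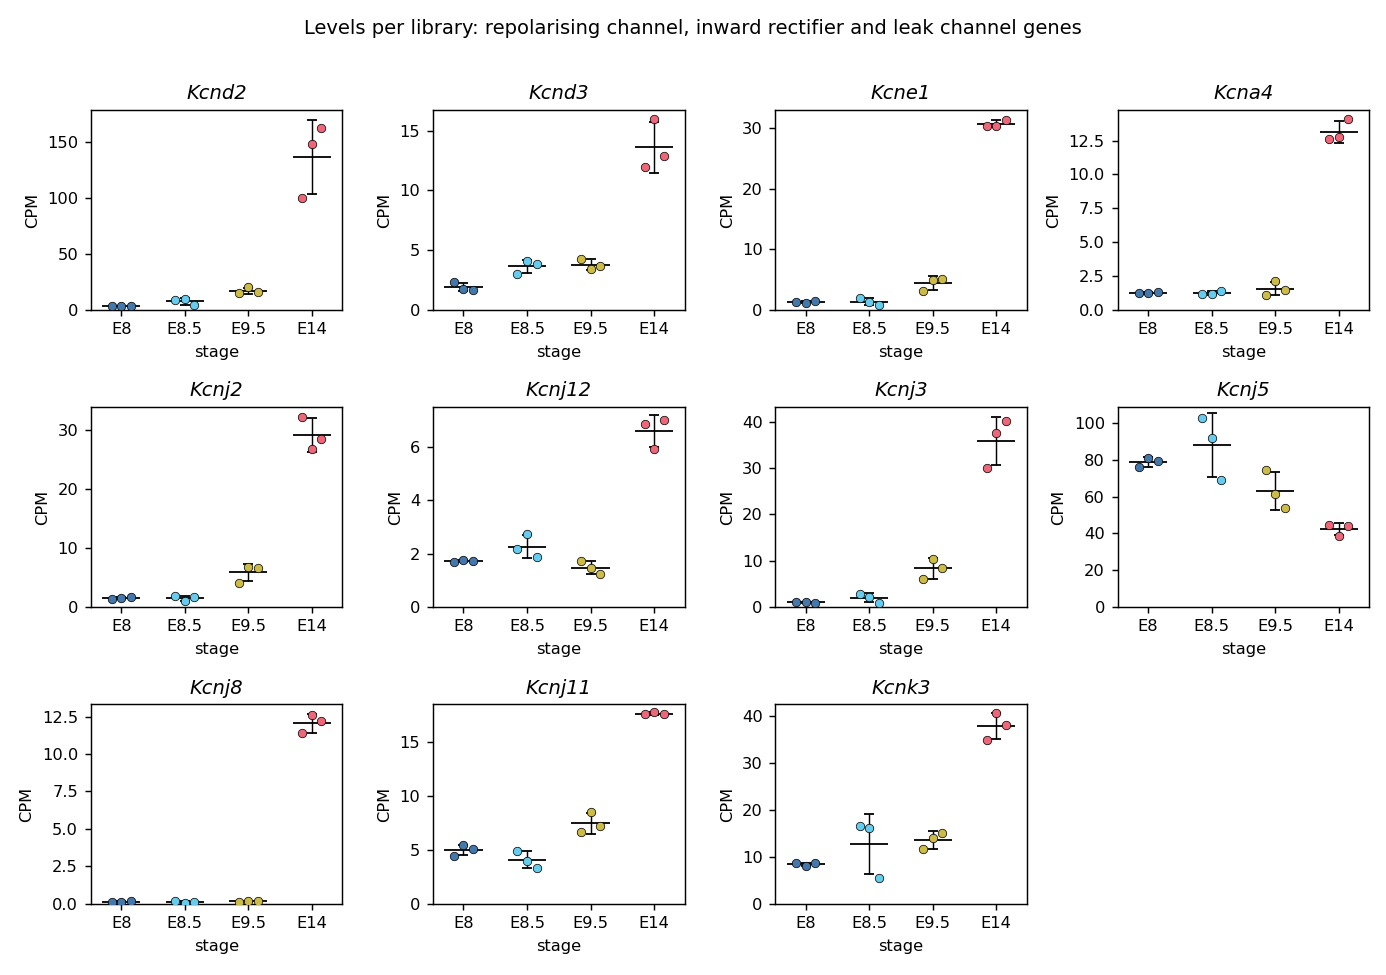
Levels of 11 genes in CPM by stage, 1 point per library in order of replicate, with the mean (horizontal line) and SD (bar) of 3 libraries on linear axes that start at 0. In 10 panels all E14 libraries lie above all earlier ones, and Kcnj5 alone is lowest at E14, at 38.5 to 44.7 CPM.

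The leak channels moved in both directions, and 8 of 11 changed over the 4 stages, beside 72.3% of all genes. From E8 to E14, 4 rose and 5 fell. Kcnk3, an acid-sensitive leak channel of heart muscle, had 8.63, 8.04 and 8.61 CPM at E8, 16.6, 16.2 and 5.45 at E8.5, 11.6, 14.1 and 15.1 at E9.5 and 34.9, 40.6 and 38.2 at E14. E8.5 replicate 3 was the lowest of all 12 libraries, and without it Kcnk3 rose 0.93 at E8.5 (adjusted p = 0.000547). With it the value was 0.60 ± 0.31 (adjusted p = 0.237). The rise at E14 was 1.48 ± 0.32 (adjusted p = 0.00255). Kcnk1, a weak inward-rectifying leak channel, went the other way, from 4.21, 3.55 and 4.17 CPM at E8 and 1.89, 3.43 and 4.64 at E8.5 to 1.38, 1.89 and 1.93 at E9.5 and 0.152, 0.194 and 0.130 at E14. At E14 it fell by 3.42 ± 0.34 (adjusted p = 6.33e-06). The smaller fall at E9.5 (-0.93) lost its call without E8.5 replicate 3 (-0.58, adjusted p = 0.0606) and without E9.5 replicate 1 (adjusted p = 0.0612). RP24-553O21.3 overlaps part of Kcnk1 on the other strand with 0.38 times its count. It had 0.525, 0.589 and 0.845 CPM at E9.5 and 0.0759, 0.0756 and 0.104 at E14. The share of Kcnk1 reads that belong to it was not tested. Kcnk5, an alkaline-activated leak channel, fell by 0.45 at E9.5 and fell by 0.57 at E14, to 3.78, 4.03 and 3.56 CPM.

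Kcnk2, a mechanosensitive leak channel, was at 19.5, 21.2 and 19.5 CPM at E8, 15.1, 15.2 and 15.9 at E8.5, 15.3, 16.3 and 16.7 at E9.5 and 12.7, 11.3 and 11.6 at E14. Genes enclosed on its interval, mainly Gm3837 on the same strand, hold 82.4% of those counts. Outside them the level was 2.80 ± 0.171, 4.41 ± 1.16, 2.21 ± 0.353 and 1.38 ± 0.0547 CPM (SD, n = 3) from E8 to E14. The change at E8.5 then turned from -0.38 ± 0.07 (adjusted p = 0.0449) to 0.65 ± 0.18 (adjusted p = 0.066), and that at E9.5 was -0.996 ± 0.19 (adjusted p = 0.00197). On the whole interval the call at E8.5 was lost in 10 of the 12 fits with a library left out (edgeR adjusted p up to 0.217).

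The small-conductance calcium-activated channels rose at E14. Kcnn2 had 30.1, 23.9 and 24.0 CPM at E8, 60.1, 66.8 and 32.0 at E8.5, 41.6, 41.7 and 29.5 at E9.5 and 67.6, 107 and 114 at E14. All E14 libraries were above all others, by 1.36 ± 0.27 over E9.5 (adjusted p = 0.0017). The difference at E8.5 was 1.03 ± 0.27 (adjusted p = 0.0619), and without E8.5 replicate 3 it was 1.26 (adjusted p = 0.00369). Kcnn3 was at 1.16 to 2.22 CPM before E14 and at 16.7, 20.1 and 16.97 there, a rise of 3.64 ± 0.19 (adjusted p = 4.17e-08), and Kcnn1 rose 1.41 ± 0.17 to 3.51, 3.90 and 3.87 CPM.

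Kcnn4, the intermediate-conductance channel of blood cells and endothelium, peaked at E9.5. It had 1.19, 1.29 and 1.29 CPM at E8, 2.06, 2.87 and 1.46 at E8.5, 4.17, 7.22 and 9.24 at E9.5 and 0.683, 0.702 and 0.756 at E14. All E9.5 libraries lay above every other library, and all E14 libraries below. It rose 1.69 ± 0.28 (adjusted p = 0.000917) and fell by 3.26 ± 0.30 (adjusted p = 4.06e-06). The 6 erythroid markers had summed levels between 174 and 409 CPM in E8.5 libraries, between 2012 and 5430 in E9.5 libraries and between 10520 and 34850 in E14 libraries. The 6 endothelial markers summed to 369 to 430, 358 to 390 and 643 to 664 CPM in the same stages. All 12 of these markers had counts in every library. Their part in the Kcnn4 values was not tested.

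Kcnma1, the large-conductance channel opened by calcium and voltage, had 3.05, 2.95 and 2.56 CPM at E8, 4.06, 4.90 and 2.17 at E8.5, 7.77, 4.86 and 4.09 at E9.5 and 2.89, 3.64 and 3.71 at E14. Neither later interval was called, with 0.58 ± 0.28 (adjusted p = 0.127) and -0.70 ± 0.29 (adjusted p = 0.0612). Its smooth muscle partner Kcnmb1 had 8.16, 8.96 and 8.91 CPM at E8, 8.82, 8.15 and 6.999 at E8.5, 7.30, 5.97 and 5.56 at E9.5 and 1.35, 1.04 and 1.25 at E14. All E14 libraries were clear below the rest, and Kcnmb1 fell by 2.38 ± 0.15 (adjusted p = 1.49e-07). The smooth muscle and pericyte markers given above had lower sums at E14 as well. Their part in the Kcnmb1 fall was not tested. Kcnmb2, a subunit that can inactivate the same channel, rose 1.16 ± 0.20 at E14 to 3.97, 5.58 and 5.15 CPM. Kcnt2, a sodium-activated pore, fell by 1.74 ± 0.19 at E9.5 and rose 0.92 ± 0.19 at E14, from 33.1, 51.5 and 37.4 CPM at E8.5 through 14.7, 12.4 and 9.60 to 20.7, 25.0 and 23.7.

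Kcnip1, a calcium-binding subunit of Kcnd channels, had the largest fall of the auxiliary subunits at E9.5. It had 81.8, 105 and 107 CPM at E8, 47.6, 46.2 and 72.6 at E8.5, 9.38, 8.02 and 7.97 at E9.5 and 3.09, 3.81 and 3.40 at E14, with every stage clear below the one before. The whole interval fell by 0.82 ± 0.17 (adjusted p = 0.0463), fell by 2.71 ± 0.18 (adjusted p = 6.83e-06) and fell by 1.29 ± 0.18 (adjusted p = 0.000118). The first of these calls was lost in 11 of the 12 fits with a library left out (edgeR adjusted p up to 0.217). It was also lost with enclosed genes taken away (-0.91, adjusted p = 0.0516). Kcnmb1 lies inside this interval on the opposite strand, so that reads can be counted for both. With enclosed genes taken away Kcnip1 was at 89.3, 47.4, 2.16 and 2.21 CPM on average from E8 to E14, so that the log2 change at E9.5 was -4.46 and E14 differed from E9.5 by 0.06 ± 0.25 (adjusted p = 0.875). Conversely, the Kcnmb1 interval held 0.819 CPM per kb at E8 against 0.253 in the rest of Kcnip1, and 0.592 against 0.0061 at E9.5, a ratio of 97.01.

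Kcnip3, a relative of Kcnip1 that also acts as a transcriptional repressor, had 14.8, 14.8 and 14.7 CPM at E8, 16.1, 22.4 and 13.3 at E8.5, 10.1, 7.51 and 6.90 at E9.5 and 1.22, 2.38 and 1.78 at E14. It fell by 1.08 ± 0.22 (adjusted p = 0.00369) and then fell by 2.16 ± 0.25 (adjusted p = 2.33e-05). Kcnip4 had 12.1, 13.6 and 7.10 CPM at E8.5, 7.31, 6.95 and 6.66 at E9.5 and 10.7, 13.4 and 12.7 at E14. It fell by 0.65 and then rose 0.82, and with the length adjustment these were -0.08 (adjusted p = 0.639) and 0.07 (adjusted p = 0.68). The fall was also lost without E8.5 replicate 1 or 2 and without E9.5 replicate 2 or 3 (adjusted p up to 0.104). The gene 5730480H06Rik overlaps Kcnip4 on the other strand with 1.54 times its count, and its mean went from 16.5 through 12.4 to 15.2 CPM over the same stages. Its part in the Kcnip4 values was not tested. Thus the 4 Kcnip members took different courses. Kcnip3 fell at both steps, Kcnip1 did so only on its whole interval, Kcnip4 fell and rose, and Kcnip2 was not called at any interval. The Kcnab subunits, which bind the inside of Kcna pores, gave 1 call in the later intervals, a rise of Kcnab3 of 0.80 ± 0.22 at E14 to at most 0.759 CPM. Enclosed genes hold 39.3% of the Kcnab3 count and 45.2% of the Kcnab1 count. With these taken away Kcnab3 rose 1.02 ± 0.31 at E14 (edgeR adjusted p = 0.0166) to a mean of 0.394 CPM, and Kcnab1 was again not called in the later intervals.

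Modifier subunits mostly declined. Kcnf1 had 17.2, 19.0 and 19.8 CPM at E8, 16.6, 17.1 and 19.3 at E8.5, 9.49, 5.09 and 4.51 at E9.5 and 0.721, 1.11 and 1.04 at E14. The first 2 stages overlapped and each later stage was clear below. It fell by 1.48 ± 0.23 (adjusted p = 0.00084) and then fell by 2.70 ± 0.27 (adjusted p = 8.65e-06). Kcng3 fell by 1.71 ± 0.32 at E9.5, to 0.748, 0.362 and 0.400 CPM, and fell by 0.96 ± 0.35 at E14 (adjusted p = 0.0393), a call lost without E9.5 replicate 1 (adjusted p = 0.187), E8 replicate 3 or any E14 replicate. Kcng1 had 1.42, 1.12 and 1.36 CPM at E9.5 and 0.0949, 0.194 and 0.0912 at E14, and fell by 3.29 ± 0.53, and at E8.5 replicate 1 stood at 5.13 beside 2.27 and 1.14. Kcng2 fell by 1.03 ± 0.24 at E9.5 to 49.1, 40.0 and 35.5 CPM, with 54.9, 61.4 and 62.0 at E14. Kcnv2 fell by 1.82 at E14.

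Levels of different members were set side by side per kb of the gene interval, which includes introns and so sets long genes low. On that scale of mean CPM per kb, Kcnf1 led at E8 (3.89), followed by Kcnj5 (2.67), Kcnh2 (1.94) and Kcna5 (1.08). Kcna5 led at E9.5 (3.61), followed by Kcnh2 (2.23) and Kcnj5 (2.14). By E14 the order was Kcnj2 (2.72), Kcnj11 (2.601), Kcne1 (2.27), Kcna5 (1.97), Kcnj8 (1.77) and Kcna4 (1.66). Thus 3 of the 6 leading members at E14, Kcne1, Kcnj8 and Kcna4, were at or below 0.321 CPM per kb at E9.5.

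Other genes of the pathway were read from 2 lists. Of 16 channel partners with other names, 14 were tested. At E9.5 3 rose and 7 fell, beside 18.4% and 18.5% of all genes, and at E14 11 rose and 0 fell, beside 25.4% and 24.6%. At an unadjusted edgeR p under 0.05 0 of the 14 were lower at E14, and DESeq2 called 11 higher and 0 lower. Cav3, the muscle caveolin, went from 3.24, 7.67 and 9.57 CPM at E9.5 to 50.0, 46.9 and 45.2, a rise of 2.79 ± 0.33. Rnf207, a regulator of Kcnh2, rose 1.21 ± 0.11 at E9.5 and 1.86 ± 0.11 at E14, to 31.5, 34.4 and 33.7 CPM. The sodium-potassium pump, which restores the gradient that these channels use, gave 3 that rose and 3 that fell of 7 at E14, beside the same 25.4% and 24.6%. Fxyd1, a regulator of the pump in heart, rose 3.31 ± 0.19 to 79.8, 73.9 and 78.3 CPM.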

How the data were processed

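Total RNA of dissected cardiogenic regions was sequenced in 12 libraries, and the deposited table gives unnormalized whole-number counts of reads for each gene interval, as the authors left them. The submitters' processing notes name STAR 2.5.0, Cufflinks 2.2.1 and the builds GRCm38, mm10 and hg38 and do not say what each served. Which program counted reads, with which strand option and annotation, is not given in the sources used here. Coordinates are those of the deposited table. In overlaps the count of the enclosing gene mostly matched or exceeded that of the gene inside it, so overlapping genes can share reads on either strand: 7 members had at least 10% of their count in genes enclosed by them.

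Counts were fitted in R 4.3.3 with edgeR 4.0.16: filterByExpr kept 28846 genes, all 80 members among them, TMM factors ran from 0.913 to 1.07, and 1 robust quasi-likelihood model covered all 12 libraries with 1 mean for each stage (common dispersion 0.0362). A Benjamini-Hochberg adjusted p below 0.05 was the call. Standard errors (SE) belong to edgeR log2 fold changes and CPM use TMM-scaled library sizes. Within each stage, replicates differed beyond counting noise (chi-square of 7.88 to 184 per gene). The fit was tested on simulated data for E14 against E9.5 with 28846 genes: 48% of 100 genes changed by 1 on the log2 scale and 77% of 100 changed by 2 were called, so a gene not called may still differ. Same-numbered libraries did not deviate together (correlations of -0.0836 to 0.134), so the numbers pair nothing.

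Alternatives were DESeq2 1.42.0, RLE factors, no count filter, a replicate block, small structural RNA and globin genes left out, offsets adjusted for gene length, the compared stages alone and each library left out. Taking away the counts of enclosed genes was added after seeing the data. RefSeq promoter windows (the first in the table where a symbol had several) were searched by script. Python 3.11, pandas 2.3.3, numpy 2.4.6 and matplotlib 3.10.9 made tables and figures.

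Members given in every library were 18 genes of a cardiac set and, per interval between neighbouring stages, up to 5 called members with the largest rise and up to 5 with the largest fall among those whose higher stage averaged 1 CPM or more; others named were chosen after their values were seen. The 10 marker lists covered cardiomyocytes, neurons, neural tube, smooth muscle and pericytes, endothelium, fibroblasts and epicardium, visceral endoderm and liver, foregut endoderm, erythroid cells, and macrophages and leukocytes. Members and lists were chosen with earlier results of these data known. Some members and pump genes enter the counts and the plot of changes by class and are not reported here by name.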

Additional observations from a re-analysis of the deposited data

How the results depend on the processing

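The E8.5 against E8 counts depended most on the processing. Members that rose there (1 reported) numbered 12 with DESeq2, beside 2361 of 28846 genes. Without small structural RNA and globin genes they numbered 3, beside 709 of 26679 genes. They numbered 0 with the replicate block, the length adjustment or the compared stages alone, where 2, 114 and 3 of all genes rose. In these last 3 edgeR fits 22, 13 and 16 members were higher at an unadjusted p under 0.05. Over all genes 7577, 6724 and 5794 differed there in either direction. Members that fell (2 reported) numbered 0 with enclosed genes taken away, 0 with the replicate block and 0 with the compared stages alone. In these fits 81, 1 and 6 of all genes fell. They numbered 1 with no count filter and 1 with the length adjustment, where 37 and 61 of all genes fell. The 3 counts of 0 became 5, 5 and 6 at an unadjusted p, where 8106, 7577 and 5794 of all genes differed in either direction. Leaving out 1 library gave 0 to 25 that rose and 0 to 5 that fell, the highest of both without E8.5 replicate 3. Over all genes the same fits gave 0 to 4212 that rose and 0 to 4653 that fell. The replicate block moved no count of the other comparisons by over 1.5 times. The 26 falls at E9.5 were 17 with the compared stages alone, which leaves fewer samples, and 18 to 31 with a library left out. With a library left out 3366 to 6047 of all genes fell there. The other ranges were 10 to 11 rises at E9.5, 26 to 31 rises and 16 to 23 falls at E14 against E9.5, and 25 to 30 and 21 to 28 at E14 against E8. At E9.5 all 10 rises and 16 of the 26 falls held in every fit run, and at E14 against E9.5 so did 25 of the 30 rises and 14 of the 20 falls.

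With enclosed genes taken away, 3 values turned: Kcnip1 at E14 against E9.5 (0.0554), Kcnk2 at E8.5 (0.65) and Kcnk2 at E9.5 (-0.996). Depth limits the 19 members that never reached 1 CPM.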

Other observations

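Marker lists not used beside a result also moved between stages. The 7 fibroblast and epicardium markers summed to 60.5 to 67.2 CPM in E8 libraries, 150 to 282 in E9.5 libraries and 1095 to 1170 in E14 libraries. The 4 macrophage and leukocyte markers had sums of 8.08 to 10.4 CPM in E9.5 libraries, against 26.7 to 32.2 in those of E14. The 5 foregut endoderm markers summed to 28.8 to 29.7 CPM in E8 libraries and 4.55 to 4.87 in E14 libraries, and the 6 neural tube markers to 4.04 to 4.32 and 0.589 to 0.743, with Olig2 at 0 in all E14 libraries. Kcnrg, a regulator of potassium channels outside the name rule, rose 1.26 ± 0.24 at E14 (edgeR adjusted p = 0.000863).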
